A study of Homo sapiens with 6 samples.

Results

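Genes of DNA replication and S phase were examined in RNA sequencing libraries of Huh7, an established human hepatoma cell line. The 53 members were given as a list of gene symbols covering origin licensing, the replicative helicase, the DNA polymerases, the clamp and its loader, and nucleotide supply. All 53 were found by symbol among the 25202 rows of the deposited count table and all 53 were among the 16331 rows with enough counts to be tested. The control group was 3 libraries of Huh7 cells carrying sgNC, a control guide, with the genotype label WT. The other group was 3 libraries of Huh7 cells carrying sghnRNPA2B1, a guide against HNRNPA2B1, and is called the knockout here after its label. No drug treatment is named for either group. Nothing in the labels shows that the 3 libraries of a group were separate cultures, and the p-values then rest on a spread that could be technical. Whether the knockout cells were 1 clone or a pool is likewise not stated there.

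Cells copy their DNA from origins that are prepared in G1. The origin recognition complex, with CDC6 and CDT1, loads rings of the MCM2-7 helicase onto DNA, and geminin blocks CDT1 once S phase has begun. Kinases, CDC45 and the GINS complex then turn the loaded rings into active helicases, polymerase alpha with primase starts each strand, and polymerases epsilon and delta extend the strands with the sliding clamp PCNA, which replication factor C loads. Many of these genes are transcribed in late G1 and S phase under E2F transcription factors, so in a growing hepatoma line their RNA is a familiar readout of proliferation.

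HNRNPA2B1, an RNA-binding protein and the target of the guide, was 1214 ± 221 CPM in the controls and 229 ± 8.30 CPM in the knockout (SD, n = 3 each), 5.29-fold lower. CPM are each gene's share of a library's counts, scaled to a common total with TMM factors. Library totals ran from 32517757 to 38870244 counts. Control replicate 3 stood apart from the other controls on the second principal component of log2 CPM, which held 13.1% of the variance. The first held 63.7% and separated the groups. Of 9 hepatocyte and hepatoma markers, 8 fell, and their summed level was 17125 to 20789 CPM in the controls and 10694 to 11663 CPM in the knockout. ALB and AFP were high in all 6 libraries, so the labelled liver origin showed in both groups. Mitochondrial transcripts took 2.01% to 4.70% of counts in the controls and 2.15% to 2.78% in the knockout.

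Of the 53 members, 22 fell and none rose in the knockout by edgeR's quasi-likelihood test at a Benjamini-Hochberg adjusted p below 0.05, and 31 did not pass. Among all tested rows 19.0% were called lower and 21.1% higher. The members were more abundant, with a median of 5.86 in mean log2 CPM against 4.74 over the tested rows with an annotated transcript. Among the 9635 tested rows within their range of mean log2 CPM (3.37 to 8.89) 27.0% were called lower and 17.6% higher. The counts given below for single role groups are to be read beside these shares. The members' median log2 fold change was -0.31, against 0.05 over all tested rows and -0.09 over the rows within that range. The sign was negative for 46 members and positive for 7. In bulk RNA, fewer cells in S phase and less of these transcripts in each cell cannot be told apart.

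For 31 members all 3 knockout values were under all 3 control values, a pattern shown by 24.8% of all tested rows. That share takes in rows outside the members' range of mean log2 CPM and was not counted within it. POLD3 alone showed the reverse order, and it did not pass the test. The controls varied more than the knockout libraries: the median coefficient of variation over the members was 12.3% in the controls and 4.98% in the knockout. Control replicate 1 held the highest control value for 24 members. The lowest control value was in replicate 3 for 20 members and in replicate 2 for 19. Knockout replicate 1 held the lowest knockout value for 29 members and the highest for 5.

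**Figure D1:**
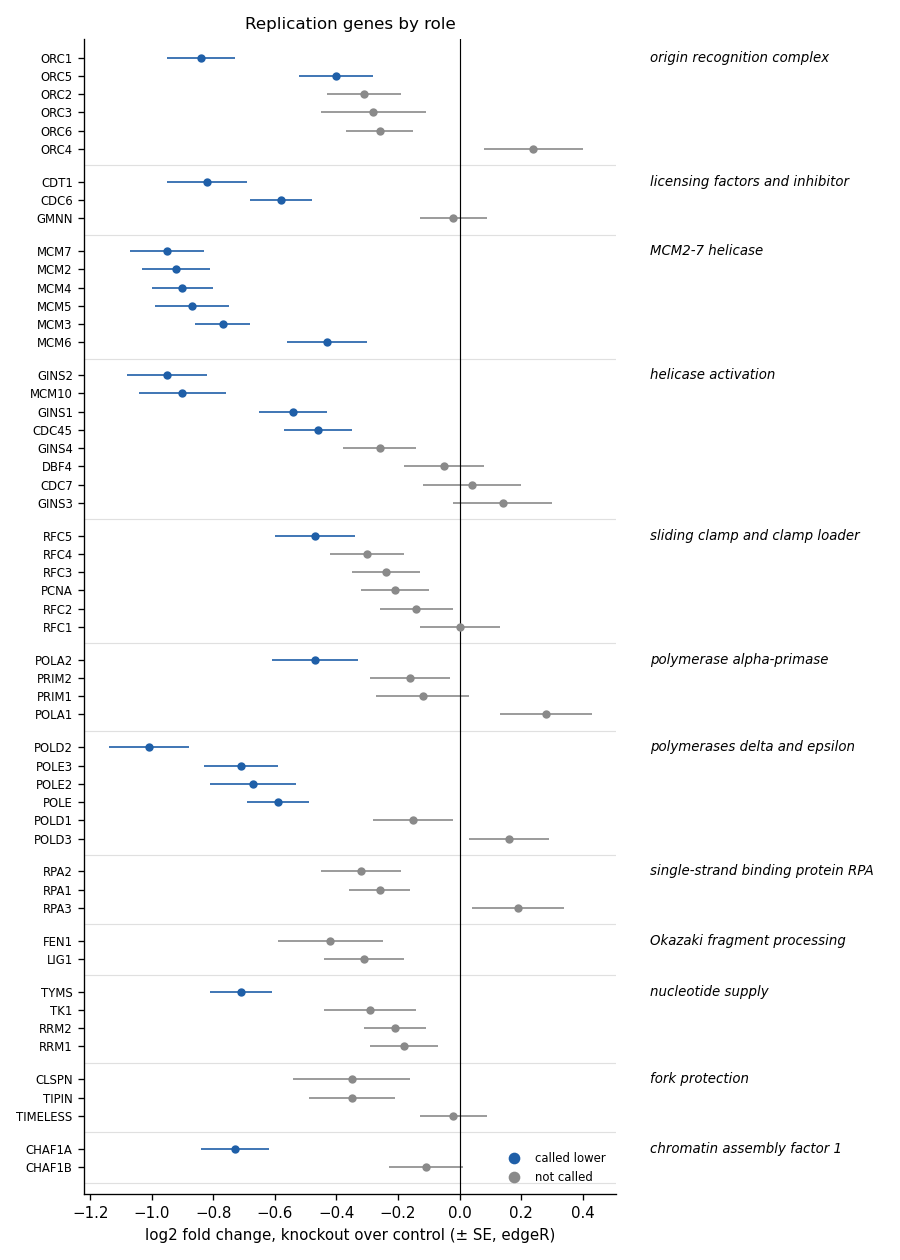
Log2 fold change of each of the 53 replication genes, knockout over control, with its SE from edgeR (horizontal axis), grouped by role. Blue points are the 22 called lower and grey points the 31 that did not pass; all 6 genes of the MCM2-7 helicase and 4 of 6 of polymerases delta and epsilon are blue, and none of the RPA genes is.

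The origin recognition complex (ORC) marks the sites where replication can start. Of its 6 genes 2 fell, beside 27.0% of tested rows within the members' range of mean log2 CPM. ORC1, the subunit that comes and goes with the cell cycle in human cells, had 57.6, 58.4 and 59.4 CPM in the controls and 29.9, 32.7 and 35.5 CPM in the knockout. The groups lay far apart and the controls were nearly level. The fall was 1.79-fold, at a log2 fold change of -0.84 ± 0.11 (SE; edgeR adjusted p = 0.000282). ORC5 had 39.4, 39.4 and 42.2 CPM in the controls and 32.1, 32.5 and 27.2 CPM in the knockout. Knockout replicate 3 was the lowest and the groups did not overlap. Its log2 fold change of -0.40 ± 0.12 had an edgeR adjusted p of 0.0197, which ran from 0.00196 to 0.18 over 17 other settings and missed the threshold in 6 of them, among them each setting that left out 1 knockout library. The other subunits did not pass, with log2 fold changes of -0.31 for ORC2, -0.28 for ORC3, -0.26 for ORC6 and 0.24 for ORC4.

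The loaders CDT1 and CDC6 both fell, and the inhibitor of CDT1 did not pass. CDT1, which brings the helicase to the origin, had 137, 190.1 and 149 CPM in the controls and 85.6, 90.0 and 93.5 CPM in the knockout. Control replicate 2 was the highest, and the lowest control still lay above all knockout libraries. The fall was 1.77-fold, a log2 fold change of -0.82 ± 0.13 (SE; edgeR adjusted p = 0.00101). CDC6, an ATPase that closes the ring with ORC, had 150.5, 145 and 142 CPM in the controls and 98.9, 97.8 and 96.0 CPM in the knockout. Both groups were tight and well separated, at a log2 fold change of -0.58 ± 0.10 (SE; edgeR adjusted p = 0.00121). Geminin (GMNN), which holds CDT1 inactive, had 36.9 ± 3.23 CPM in the controls and 36.5 ± 1.48 CPM in the knockout (SD, n = 3 each), and the groups overlapped.

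All 6 genes of the MCM2-7 helicase, the ring that unwinds the DNA, fell, at a median log2 fold change of -0.89. MCM4 had 412, 446 and 429 CPM in the controls and 212, 237 and 239 CPM in the knockout, a log2 fold change of -0.90 ± 0.10 (SE; edgeR adjusted p = 0.000114), the smallest p among the members. MCM2 had 398, 450.1 and 357 CPM in the controls and 212, 205 and 220.3 CPM in the knockout, at -0.92 ± 0.11 (adjusted p = 0.000199). MCM3 had 357, 384 and 372 CPM in the controls and 212, 224 and 217 CPM in the knockout, at -0.77 ± 0.09 (adjusted p = 0.000207). For these 3 genes the lowest control stood well above the highest knockout library. MCM7 was the most abundant of the ring genes, with 651, 702 and 525 CPM in the controls and 322, 316 and 333 CPM in the knockout, at -0.95 ± 0.12 (adjusted p = 0.000238). MCM5 fell 1.83-fold, from 254 ± 36.7 to 139 ± 8.15 CPM (SD, n = 3 each). In both genes control replicate 3 was the lowest control and the knockout libraries lay close together.

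MCM6 fell least of the ring genes, with 191, 139 and 167 CPM in the controls and 118, 126 and 125 CPM in the knockout. Control replicate 2 came close to the knockout libraries without reaching them. Its log2 fold change was -0.43 ± 0.13 (SE; edgeR adjusted p = 0.0212), and the adjusted p ran from 0.00154 to 0.171 over 17 other settings, missing the threshold in 6 of them. The summed level of the 6 genes was 2071 to 2414 CPM in the controls and 1205 to 1276 CPM in the knockout, 1.81-fold lower by the means. Per kilobase of transcript, MCM6 made up 8.03%, 5.46% and 7.72% of the ring's RNA in the controls and 9.32%, 9.58% and 9.33% in the knockout. Since MCM6 fell least, its share of the ring had to rise, and these shares are given as a description. The shares of the other 5 subunits overlapped between the groups. For MCM7, the largest, the share was 32.0 ± 2.33% in the controls and 30.0 ± 0.780% in the knockout (SD, n = 3 each).

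**Figure D2:**
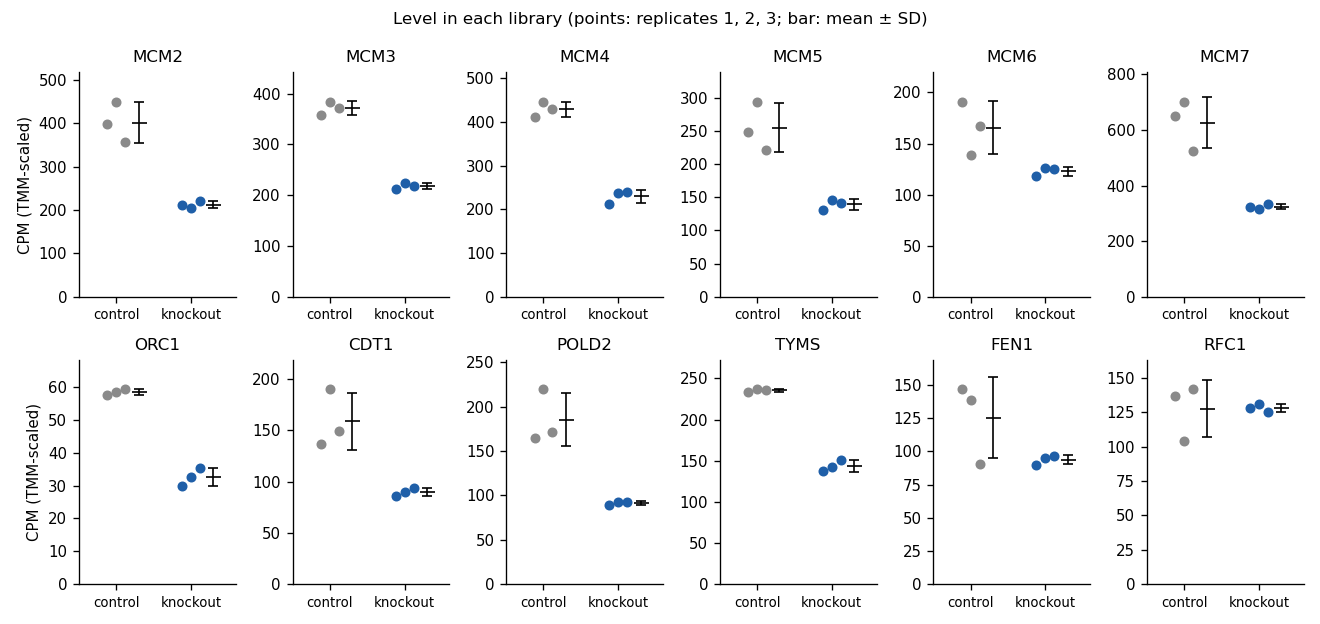
TMM-scaled CPM (vertical axis, from 0) of 12 replication genes in each library; grey points are control replicates 1, 2 and 3, blue points knockout replicates 1, 2 and 3, and the black bar is the mean ± SD. The 6 MCM genes, ORC1, CDT1, POLD2 and TYMS have no overlap between groups, while FEN1 and RFC1 do.

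Promoter windows from RefSeq (GRCh38.p14, 250 bases before to 50 bases after a gene's start) were found for 47 of the 53 members. They were searched on both strands for an E2F-type motif (TTTCCCGC, TTTCGCGC, TTTGCCGC or TTTGGCGC) and for the CCAAT box that the factor NF-Y binds. Overlapping matches were each counted. The windows of 4 ring genes and of POLD2, the member with the largest fall, are shown because these genes all fell and hold different mixes of the motifs. Capitals mark the matches, a CCAAT box on the other strand reading ATTGG, and TTTCGCGCGAAA being a pair of overlapping E2F-type matches on opposite strands. They lie at chr3:127598161-127598460 (plus strand) for MCM2, chr6:52284693-52284992 (minus) for MCM3, chr2:135876394-135876693 (minus) for MCM6, chr7:100101348-100101647 (minus) for MCM7 and chr7:44123499-44123798 (minus) for POLD2.
MCM2: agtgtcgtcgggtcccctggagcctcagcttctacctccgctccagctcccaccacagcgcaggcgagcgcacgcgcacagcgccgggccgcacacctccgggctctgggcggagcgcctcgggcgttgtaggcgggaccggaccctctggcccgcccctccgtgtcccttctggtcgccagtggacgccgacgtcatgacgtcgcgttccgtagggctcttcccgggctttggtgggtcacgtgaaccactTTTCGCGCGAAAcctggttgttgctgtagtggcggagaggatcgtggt
MCM3: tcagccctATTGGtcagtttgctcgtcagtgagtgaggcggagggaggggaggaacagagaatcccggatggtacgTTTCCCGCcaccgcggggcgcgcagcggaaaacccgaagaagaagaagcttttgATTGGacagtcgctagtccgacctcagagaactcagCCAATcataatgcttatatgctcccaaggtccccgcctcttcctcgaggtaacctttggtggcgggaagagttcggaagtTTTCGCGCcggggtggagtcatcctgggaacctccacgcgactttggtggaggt
MCM6: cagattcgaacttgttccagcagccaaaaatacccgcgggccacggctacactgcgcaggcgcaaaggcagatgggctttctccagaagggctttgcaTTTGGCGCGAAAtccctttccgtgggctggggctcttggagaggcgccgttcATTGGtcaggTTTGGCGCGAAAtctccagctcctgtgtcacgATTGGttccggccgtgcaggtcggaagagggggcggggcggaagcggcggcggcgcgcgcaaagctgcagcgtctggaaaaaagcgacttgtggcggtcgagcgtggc
MCM7: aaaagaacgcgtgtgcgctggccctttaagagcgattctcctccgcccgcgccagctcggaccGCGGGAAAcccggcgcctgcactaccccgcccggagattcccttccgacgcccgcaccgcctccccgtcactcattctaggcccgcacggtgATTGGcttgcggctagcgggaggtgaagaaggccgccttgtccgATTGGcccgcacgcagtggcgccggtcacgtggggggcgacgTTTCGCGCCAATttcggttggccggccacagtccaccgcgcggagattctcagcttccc
POLD2: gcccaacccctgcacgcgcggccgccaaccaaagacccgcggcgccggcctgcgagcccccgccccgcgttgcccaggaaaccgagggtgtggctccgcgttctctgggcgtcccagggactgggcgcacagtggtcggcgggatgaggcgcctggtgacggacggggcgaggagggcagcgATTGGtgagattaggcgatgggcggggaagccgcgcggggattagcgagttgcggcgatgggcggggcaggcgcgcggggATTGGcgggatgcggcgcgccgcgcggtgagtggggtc

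MCM6 held 4 E2F-type matches, as 2 overlapping pairs, and POLD2 held none. MCM2 held 2, as 1 overlapping pair, with no CCAAT box, and MCM3 held 2 with 3 CCAAT boxes. Any relation of the matches to the size of a fall was not tested. MCM7 has 3 windows in the table, and the E2F-type matches were in 1 of them, the window shown. Over the members, 22 of 47 genes (46.8%) had a window with an E2F-type match, against 3.99% of the 27305 genes of the table and 6.46% of the 11020 of them that were tested. The share was 12 of 20 among the members that fell and 10 of 27 among those that did not pass. CCAAT was found for 28 of 47 members (59.6%), 39.7% of all genes of the table and 43.4% of those tested. A further element of cell cycle promoters, CHR (TTTGAA or TTCGAA), was found for 4 of 47 members (8.51%), 19.5% of all genes and 16.3% of those tested. A match is only a run of letters in these windows. MCM4, MCM5, GINS4, POLD3, RPA2 and RPA3 had no window.

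Of the 8 genes that turn the loaded ring into an active helicase, 4 fell. GINS2, a subunit of the GINS complex, had 29.7, 32.8 and 38.4 CPM in the controls and 17.7, 16.0 and 18.5 CPM in the knockout, a log2 fold change of -0.95 ± 0.13 (SE; edgeR adjusted p = 0.000446). MCM10, which helps the helicase to fire, had 67.5, 50.7 and 71.2 CPM in the controls and 31.3, 35.9 and 34.3 CPM in the knockout, at -0.90 ± 0.14 (adjusted p = 0.000846). Neither gene had overlapping groups, although control replicate 2 was low for MCM10. GINS1, another subunit of GINS, had 72.8, 65.8 and 69.8 CPM in the controls and 44.2, 50.2 and 49.4 CPM in the knockout, at -0.54 ± 0.11 (adjusted p = 0.00312). CDC45, the remaining partner of the active helicase, had 55.2, 67.8 and 62.0 CPM in the controls and 44.8, 45.7 and 44.5 CPM in the knockout, at -0.46 ± 0.11 (adjusted p = 0.00879). The groups stood apart for both. For CDC45 the adjusted p rose to 0.0719 with library size alone and to 0.0502 without knockout replicate 1.

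The GINS complex holds 1 copy of each subunit, and its 4 genes gave different values here. GINS3 had 9.81 ± 1.56 CPM in the controls and 10.8 ± 0.353 CPM in the knockout (SD, n = 3 each), and GINS4 had a log2 fold change of -0.26 ± 0.12 (SE; edgeR adjusted p = 0.124). GINS2 was 12.6 CPM per kilobase in the controls and 6.51 in the knockout, while GINS3 was 3.06 and 3.37 CPM per kilobase. The kinase that starts firing, CDC7, and its activator DBF4 had log2 fold changes of 0.04 ± 0.16 and -0.05 ± 0.13 (SE), with overlapping groups.

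Polymerases epsilon and delta, which extend the leading and lagging strands, had 4 of 6 genes lower. POLD2, an accessory subunit of polymerase delta, had 165, 219.7 and 171 CPM in the controls and 89.3, 92.6 and 92.7 CPM in the knockout. Every control was well above the knockout libraries, which were nearly equal. The log2 fold change of -1.01 ± 0.13 (SE; edgeR adjusted p = 0.000231) was the largest fall among the members. POLE, the catalytic subunit of polymerase epsilon, had 166, 171 and 167 CPM in the controls and 111, 117 and 109 CPM in the knockout, at -0.59 ± 0.10 (adjusted p = 0.00114). POLE3, a histone-fold subunit, had 103, 110.2 and 136 CPM in the controls and 69.2, 71.4 and 72.8 CPM in the knockout, at -0.71 ± 0.12 (adjusted p = 0.00154). POLE2, which binds the catalytic subunit, had 23.1, 21.1 and 25.9 CPM in the controls and 12.8, 15.1 and 16.1 CPM in the knockout, at -0.67 ± 0.14 (adjusted p = 0.00401). None of these 3 genes had overlapping groups. POLD1, the catalytic subunit of polymerase delta, had 61.0 ± 9.65 CPM in the controls and 54.9 ± 2.06 CPM in the knockout (SD, n = 3 each), and the groups overlapped. POLD3 had 21.6 ± 0.347 CPM in the controls and 24.2 ± 3.30 CPM in the knockout.

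Polymerase alpha and primase, which lay down the first stretch of each strand, had 1 of 4 genes lower. Of tested rows within the members' range of mean log2 CPM, 27.0% were called lower. POLA2, the regulatory subunit of polymerase alpha, had 24.3, 30.6 and 25.7 CPM in the controls and 18.1, 17.8 and 22.4 CPM in the knockout. Knockout replicate 3 came nearest to the controls. Its log2 fold change was -0.47 ± 0.14 (SE; edgeR adjusted p = 0.0247), with an adjusted p of 0.0052 to 0.123 over 17 other settings that missed the threshold in 5. POLA2 also shares 2012 exon bases on the same strand with another annotated gene, AP000944.2, so its reads could be split between them. POLA1, the catalytic subunit, had 24.1, 17.3 and 19.2 CPM in the controls and 24.6, 26.8 and 22.0 CPM in the knockout, at 0.28 ± 0.15 (adjusted p = 0.168), and control replicate 1 lay among the knockout libraries. Primase genes PRIM1 and PRIM2 had log2 fold changes of -0.12 and -0.16 and did not pass.

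The sliding clamp and its loader, replication factor C, had 1 of 6 genes lower, beside 27.0% of tested rows within the members' range. RFC5 had 52.0, 48.4 and 40.2 CPM in the controls and 35.6, 31.2 and 34.8 CPM in the knockout, a log2 fold change of -0.47 ± 0.13 (SE; edgeR adjusted p = 0.0143). The groups did not overlap, and the call was lost with library size alone (adjusted p = 0.105) and without knockout replicate 2 (0.0809). PCNA, the clamp itself, had 97.7 ± 9.17 CPM in the controls and 84.3 ± 4.36 CPM in the knockout (SD, n = 3 each), at -0.21 ± 0.11 (adjusted p = 0.148). Its groups did not overlap, but the lowest control (89.3 CPM) and the highest knockout library (88.7 CPM) were nearly equal. RFC1, the large subunit of the loader, had 128 ± 20.8 CPM in the controls and 128 ± 2.69 CPM in the knockout (SD, n = 3 each). RFC2, RFC3 and RFC4 had log2 fold changes of -0.14, -0.24 and -0.30 and did not pass.

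RPA, the protein that coats single-stranded DNA, had none of its 3 genes past the threshold. RPA1 had 130.0, 119.7 and 119 CPM in the controls and 102, 103 and 102 CPM in the knockout, at -0.26 ± 0.10 (SE; edgeR adjusted p = 0.0562). The knockout libraries lay below all controls and were nearly equal, and RPA1 passed in 7 of 17 other settings, including each one that left out a control library (adjusted p of 0.0245 to 0.0487). RPA2 and RPA3 had log2 fold changes of -0.32 and 0.19 and did not pass.

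For FEN1 and LIG1, which trim and join Okazaki fragments, neither gene passed. FEN1 had 147, 139 and 90.5 CPM in the controls and 89.9, 94.8 and 96.4 CPM in the knockout. Control replicate 3 stood at the knockout level and the other controls well above it. The log2 fold change was -0.42 ± 0.17 (SE; edgeR adjusted p = 0.067), and -0.63 without control replicate 3 (adjusted p = 0.00107). Exons of FEN1 share 49 bases with FADS2 on the same strand, and FADS2 itself fell from 270.1 ± 25.1 to 86.2 ± 6.74 CPM (SD, n = 3 each). Its part in the FEN1 values was not tested. LIG1 had 37.8 ± 2.79 CPM in the controls and 30.4 ± 3.99 CPM in the knockout (SD, n = 3 each).

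**Figure D3:**
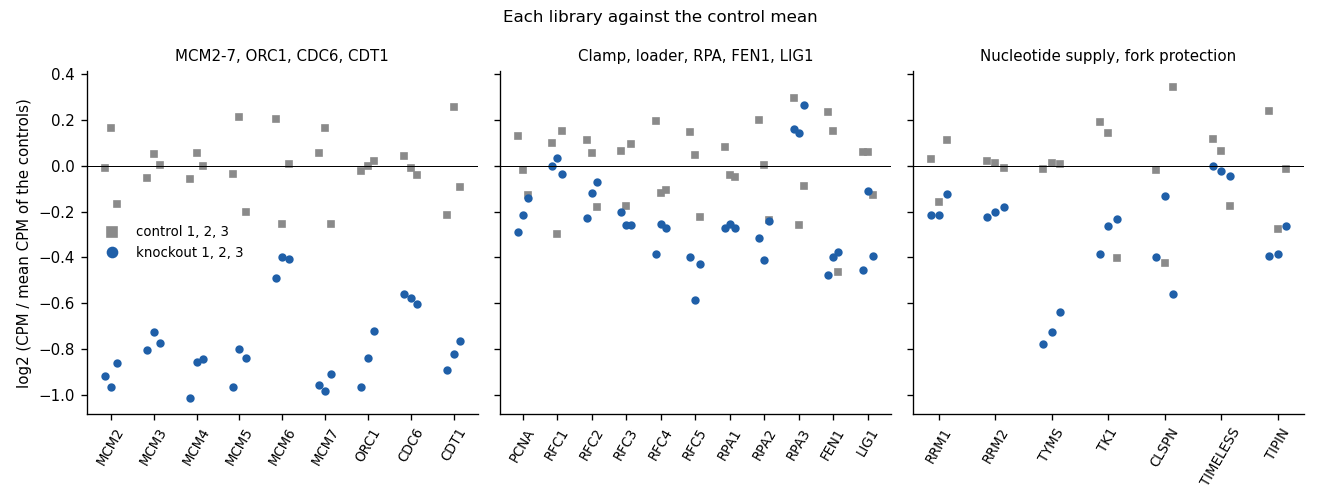
Log2 ratio of each library's CPM to the mean CPM of the controls (vertical axis) for 3 sets of replication genes; grey squares are control replicates 1, 2 and 3 and blue circles knockout replicates 1, 2 and 3, left to right. MCM2 to MCM7, ORC1, CDC6 and CDT1 separate by group, while for FEN1 and TK1 control replicate 3 lies among or beside the knockout libraries.

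Nucleotide supply had 1 of 4 genes lower, beside 27.0% of tested rows within the members' range of mean log2 CPM. TYMS, thymidylate synthase, which makes dTMP, had 233, 237 and 236 CPM in the controls and 137, 142 and 151 CPM in the knockout. The controls were almost equal and the groups lay far apart, at a log2 fold change of -0.71 ± 0.10 (SE; edgeR adjusted p = 0.000369). TYMS shares 967 exon bases with ENOSF1 on the opposite strand. ENOSF1 had 85.0 ± 7.30 CPM in the controls and 99.6 ± 6.21 CPM in the knockout (SD, n = 3 each) and did not pass. RRM2, the regulated subunit of ribonucleotide reductase, had 148, 147 and 145 CPM in the controls and 125, 127 and 129 CPM in the knockout, at -0.21 ± 0.10 (adjusted p = 0.109). Its groups were tight and did not overlap. Thymidine kinase 1 (TK1), which salvages thymidine, had 81.1, 78.3 and 53.7 CPM in the controls and 54.3, 59.1 and 60.5 CPM in the knockout, at -0.29 ± 0.15 (adjusted p = 0.151). Control replicate 3 was the lowest of all 6 libraries, and without it TK1 passed (adjusted p = 0.00449). RRM1, the catalytic subunit of the reductase, had a log2 fold change of -0.18 ± 0.11.

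Fork protection had none of 3 genes past the threshold. TIPIN, a partner of TIMELESS at the fork, had 35.9, 25.1 and 30.1 CPM in the controls and 23.1, 23.3 and 25.3 CPM in the knockout, at -0.35 ± 0.14 (SE; edgeR adjusted p = 0.0793). Control replicate 2 lay within the knockout range. CLSPN, which relays checkpoint signals, and TIMELESS had log2 fold changes of -0.35 ± 0.19 and -0.02 ± 0.11. Chromatin assembly factor 1 places histones on new DNA. Its large subunit CHAF1A had 148, 170.4 and 149.7 CPM in the controls and 90.4, 92.8 and 99.0 CPM in the knockout, at -0.73 ± 0.11 (adjusted p = 0.000551), with no overlap. CHAF1B had 19.7 ± 1.14 CPM in the controls and 18.3 ± 1.52 CPM in the knockout (SD, n = 3 each), with overlapping groups.

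The members that fell differed from the others in abundance and base composition. The median of their mean log2 CPM was 6.94, against 5.33 for the 31 that did not pass and 4.74 over all tested rows with a transcript. Median GC content of the longest transcript was 50.3% and 44.8%, with 48.4% over all such rows. Across the 53 members, as a description of genes measured in the same libraries, Spearman's rho of the log2 fold change was -0.53 with mean log2 CPM, -0.50 with GC content and 0.04 with transcript length. No rho was computed over all tested rows. Their median log2 fold change was 0.05, and -0.09 for those within the members' range of mean log2 CPM. With offsets for GC content and length in the fit, 38 members were called lower, while the share called lower over all tested rows was 29.5%. The part of abundance and GC content in these calls was not tested further.

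**Figure D4:**
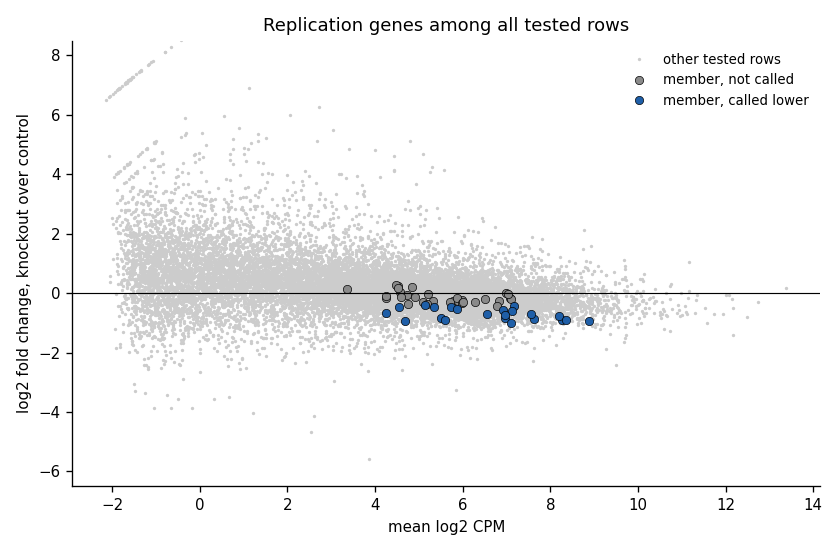
Log2 fold change, knockout over control (vertical axis), against mean log2 CPM (horizontal axis) for the 16331 tested rows; small grey points are other rows, blue circles the 22 members called lower and grey circles the other 31. The members lie at a mean log2 CPM of 3.37 to 8.89 and no fall exceeds 1.01; 6 rows lie beyond the vertical axis.

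Another 75 genes of S phase were read from the same fit in 5 lists. Of these, 26 fell, 7 rose and 42 did not pass, against 19.0% of all tested rows called lower and 21.1% called higher. Most lay within the members' range of mean log2 CPM, where 27.0% of tested rows were called lower and 17.6% higher. The median log2 fold change was -0.22.

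Among 13 E2F and pocket protein genes, 4 fell and 2 rose. Of tested rows within the members' range, 27.0% were called lower and 17.6% higher. TFDP1, the dimer partner of E2F factors, had 136, 139 and 139 CPM in the controls and 79.8, 81.6 and 81.1 CPM in the knockout, at -0.77 ± 0.10 (SE; edgeR adjusted p = 0.000221). The repressive E2F5 fell 1.95-fold and E2F4 fell 1.73-fold, with no overlap between groups in any of these 3 genes. RBL2, the pocket protein p130, had 54.8, 45.3 and 58.8 CPM in the controls and 76.0, 74.4 and 83.7 CPM in the knockout, a rise of 0.56 ± 0.12 on the log2 scale (adjusted p = 0.00529). E2F6, a repressor that lacks a pocket protein site, rose 1.53-fold and E2F8 fell 1.40-fold. The activator E2F1 had 69.4 CPM in the controls and 68.9 CPM in the knockout by the means. E2F3 and E2F2 had log2 fold changes of 0.22 and -0.16 and did not pass either.

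Of 12 S phase kinase and licensing control genes, 8 fell and 1 rose. Of the 8, CUL4A, SKP2 and CDK2 lost the call in 9, 8 and 7 of 17 other settings. CDC25A, the phosphatase that activates CDK2, had 117, 119 and 94.7 CPM in the controls and 56.6, 55.5 and 57.7 CPM in the knockout, at -0.96 ± 0.12 (SE; edgeR adjusted p = 0.000201). Cyclin A2 (CCNA2) had 168, 157 and 188 CPM in the controls and 91.4, 95.2 and 92.6 CPM in the knockout, at -0.88 ± 0.11 (adjusted p = 0.000203). Both genes had widely separated groups. DBF4B, a second activator of CDC7, fell 1.90-fold, and DDB1, a part of the ligase that degrades CDT1, fell 1.37-fold. Cyclin E2 (CCNE2) had 3.05, 2.95 and 2.03 CPM in the controls and 5.24, 6.98 and 5.28 CPM in the knockout, a rise of 1.12 ± 0.24 on the log2 scale (adjusted p = 0.00473). Every knockout library was above every control for this scarce transcript, and CCNE1 did not pass, at a log2 fold change of -0.33.

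Origin firing and other fork factors had 6 of 25 genes lower and 2 higher. Beside the lists of this paragraph, 27.0% of tested rows within the members' range were called lower and 17.6% higher. Of the 6, RECQL4 (edgeR adjusted p = 0.0435, with overlapping groups) and MCM8 (0.0474) each lost the call in 11 of 17 other settings. TOP1, the topoisomerase that relieves twist ahead of the fork, fell from 396 ± 45.1 to 226 ± 8.05 CPM (SD, n = 3 each). SSRP1, a subunit of the histone chaperone FACT, fell 1.55-fold, and TONSL, a repair scaffold for stalled forks, fell 1.65-fold. POLD4, the smallest subunit of polymerase delta, had 30.4, 36.9 and 25.5 CPM in the controls and 50.7, 52.5 and 54.5 CPM in the knockout, a rise of 0.77 ± 0.14 on the log2 scale (SE; edgeR adjusted p = 0.00197). The subunits of polymerase delta thus gave 1 called fall (POLD2), 1 called rise (POLD4) and no call for POLD1 and POLD3. In nucleotide supply outside the members, 5 of 15 genes fell and 2 rose. MTHFD1, a folate enzyme, fell 1.46-fold, and CAD, which starts pyrimidine synthesis, fell 1.45-fold. TK2, the mitochondrial thymidine kinase, rose 1.96-fold. RRM2B, the p53-inducible subunit of the reductase, was the other gene of this list that rose. Of 10 genes for histone supply and assembly, 3 fell and none rose, namely HIRA (1.66-fold), NASP (1.53-fold) and ASF1B (1.27-fold). Outside the genes already named as unstable, calls were lost in 8 of 17 other settings for UMPS, 7 for ASF1B, 3 for E2F8 and 2 each for DDB1, RRM2B and SHMT1.

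**Figure D5:**
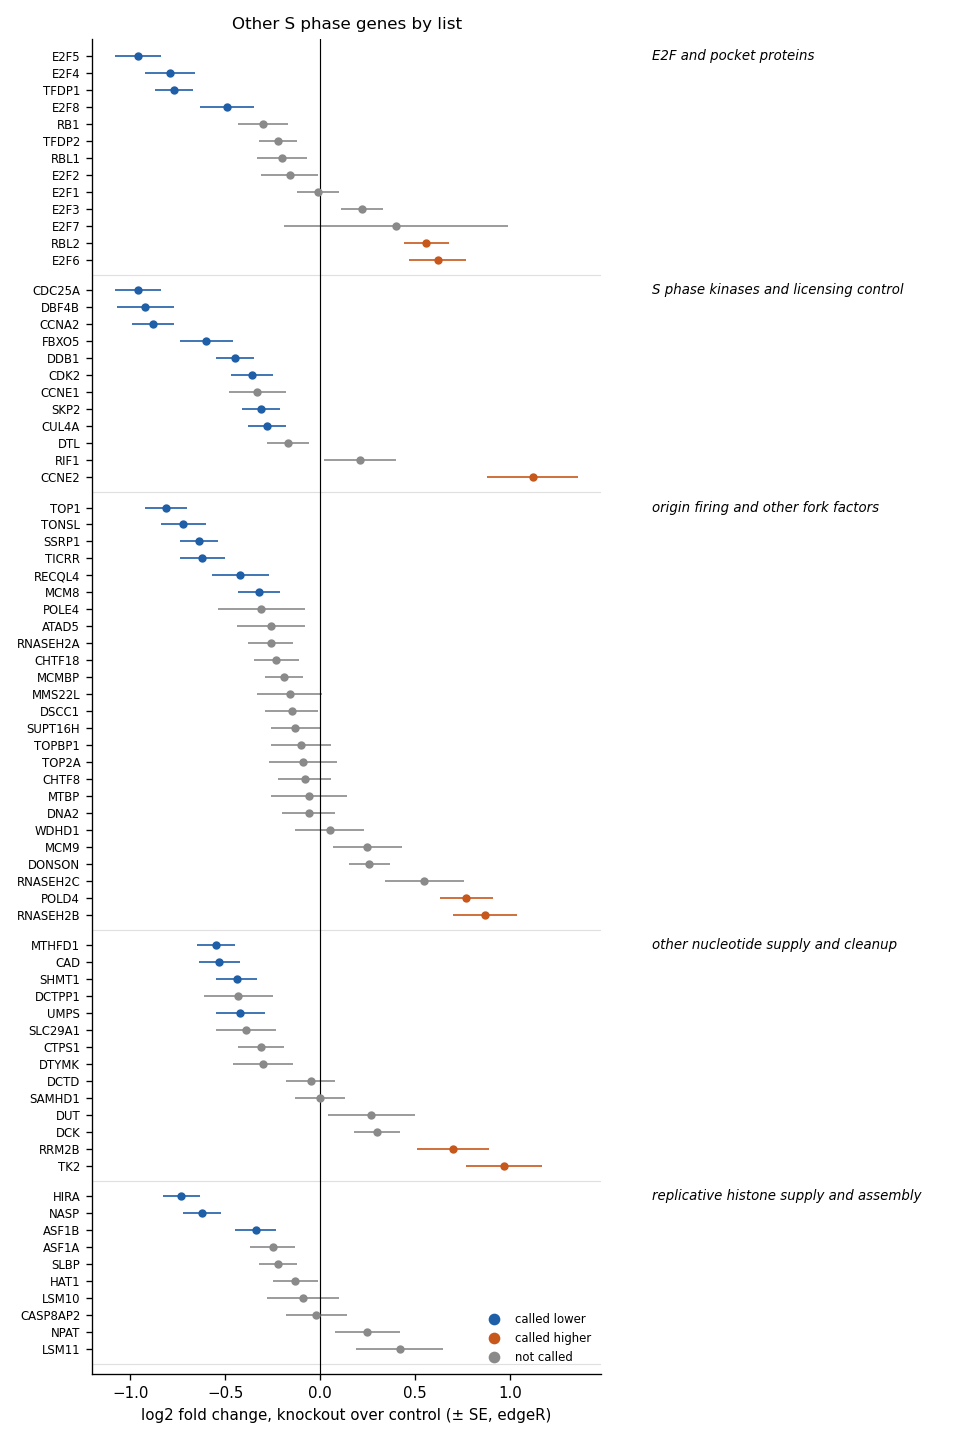
Log2 fold change of 74 of the 75 further S phase genes, knockout over control, with its SE from edgeR (horizontal axis), grouped into 5 lists. Blue points are 25 called lower, orange points the 7 called higher and grey points the 42 that did not pass; CCNE2 has the largest rise, at 1.12.

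Markers of other cell types were read beside these values. Of 5 leukocyte markers, PTPRC, CD3E and MS4A1 were at or near 0 in all libraries, and the list's summed level, nearly all CD68, was 177 to 268 CPM in the controls and 134 to 145 CPM in the knockout. Among 4 endothelial markers KDR, CDH5 and VWF were under 1 CPM, and PECAM1 made up the sum of 54.3 to 70.4 CPM in the controls and 31.0 to 35.2 CPM in the knockout. The 5 fibroblast or stellate markers summed to 1.10 to 1.87 CPM in the controls and 4.92 to 19.9 CPM in the knockout, with knockout replicate 2 highest. Of these, PDGFRB had 0.701, 1.24 and 0.898 CPM in the controls and 3.65, 3.56 and 4.17 CPM in the knockout (edgeR adjusted p = 0.000625). COL3A1 was also called higher (edgeR adjusted p = 0.0437), with overlapping groups and 7.47 CPM in knockout replicate 2. The 3 erythroid markers stayed under 1 CPM in sum. For 4 cholangiocyte markers the sum was 360.1 to 507 CPM in the controls and 303 to 318 CPM in the knockout, with KRT7 at or near 0. SOX9 fell 2.21-fold and carried that difference, while KRT19 rose from under 1 CPM (edgeR adjusted p = 0.00577) and EPCAM, which did not pass, had all knockout values above all controls. The part of other cells in the replication genes' values was not tested. The members called lower numbered 18 without knockout replicate 1, 18 without knockout replicate 2 and 20 without knockout replicate 3. Over all tested rows the shares called lower in these fits were 12.3%, 12.6% and 13.9%.

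Read sharing bears on some members. In GENCODE release 29, 21 of the 53 have exons that overlap another gene and 9 have a named pseudogene (DBF4, FEN1, PCNA, POLD2, RFC3, RFC5, RPA2, RRM2 and TYMS), so their counts are uncertain to that extent. Besides POLA2 and FEN1, same-strand overlaps were found for RRM2 (1077 exon bases with AC007240.1), POLD1 (426 with AC020909.1) and PRIM1 (362 with AC117378.1). MCM7 shares 277 exon bases with AP4M1 on the opposite strand, and AP4M1 had 14.5 ± 2.29 CPM in the controls and 15.6 ± 1.42 CPM in the knockout (SD, n = 3 each), far under MCM7.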

How the data were processed

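RNA was purified on columns and made into libraries with a SMARTER mRNA kit, per the labels' protocols. The authors deposited unnormalized gene-level read counts, with 1 column for each of the 6 samples, named as in the sample descriptions. The submitters' processing notes name hg19. Aligner, counter, annotation and use of strand: not given in the sources used here.

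Counts were tested in R 4.3.3 with edgeR 4.0.16 (filterByExpr, TMM, quasi-likelihood, group as the single term), with Benjamini-Hochberg adjustment over all 16331 tested rows. Each SE is the fitted log2 fold change divided by the root of its F statistic, and the biological coefficient of variation was 17.6%. CPM were computed from the deposited counts. Libraries of a group differed by far more than sampling noise (chi-square per degree of freedom at least 9.72), so all 6 were counted. Alternatives used DESeq2 1.42.0 and limma 3.58.1 besides edgeR.

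Symbols came from a table of gene names, transcript length and GC content from GENCODE release 29 (84.5% of tested rows), and promoter windows from RefSeq. The members, the role groups and the further lists were chosen with earlier results of these data known, so no list was tested as a set. Per-library values were given for up to 4 called members of each role group with the smallest p, for the smallest p of a group with none called, and for MCM6, POLA1, RRM2 and TK1, chosen after their values were seen. Up to 4 called genes with the smallest p were named per further list, and E2F1, E2F2, E2F3, E2F6, E2F8, CCNE1, CDK2, CUL4A, DDB1, MCM8, RECQL4, RRM2B, SHMT1, SKP2 and UMPS were added after their values were seen. Of the further genes, 1 is not reported here by name but is in the counts. Figures were drawn with matplotlib 3.10.9.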

Additional observations from a re-analysis of the deposited data

How the results depend on the processing

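Of the 22 members called lower, 17 kept the call in all 17 alternative fits: ORC1, CDC6, CDT1, MCM2, MCM3, MCM4, MCM5, MCM7, MCM10, GINS1, GINS2, POLD2, POLE, POLE2, POLE3, TYMS and CHAF1A. ORC5, MCM6, CDC45, RFC5 and POLA2 each lost it in 2 to 6. The number called lower was 17 with library size alone, 28 with DESeq2 and 38 with GC and length offsets. Over all tested rows 11.5%, 17.9% and 29.5% were called lower in these fits, and 19.0% in the reported fit. The members called lower numbered 18 to 33 when single libraries were left out, with 33 without control replicate 3. The share over all tested rows was then 12.3% to 20.4%. No member was called higher except POLA1 with library size alone (1) and without control replicate 1 (range 0 to 1). Over all tested rows 72.1% of 6724 calls were higher with library size alone, and 49.5% of 6808 without control replicate 1. The members' median was -0.21 with upper-quartile scaling, -0.13 with library size alone, -0.22 with cyclic loess, -0.44 with GC and length offsets and -0.37 to -0.26 when single libraries were left out. Upper-quartile scaling and library size alone moved the median of all rows from 0.05 to 0.16 and 0.24. Less that median, the members stood at -0.37 in all 3 of these fits and at -0.22 with cyclic loess. Those 3 fits differ only in library scaling, which shifts all rows nearly alike. The value of -0.37 therefore had to stay nearly the same. Further S phase genes called lower were 16 with library size alone, 44 with GC and length offsets, 17 at an adjusted p below 0.01 and 17 to 31 when single libraries were left out. For these fits the shares of all tested rows called lower are those given above, with none given for the 0.01 threshold. Those called higher were 11 with library size alone and 11 with upper-quartile scaling. With upper-quartile scaling 64.4% of 6564 calls over all tested rows were higher, and 52.7% of 6548 in the reported fit. The share with library size alone is given above. Where not stated, the cause was not tested.

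Some members that were not called changed sign. With library size alone GMNN was 0.17, DBF4 0.14, RFC2 0.04, PRIM1 0.06, PRIM2 0.03, POLD1 0.03, TIMELESS 0.16 and CHAF1B 0.08. With upper-quartile scaling GMNN was 0.09, DBF4 0.06 and TIMELESS 0.08. With cyclic loess GMNN was 0.03, GINS3 -0.05, RRM1 0.01 and TIMELESS 0.16. Without the added loci GMNN was 0.03 and TIMELESS 0.02, and with GC and length offsets CDC7 was -0.12. When single libraries were left out, GMNN ran from -0.08 to 0.02, CDC7 from -0.09 to 0.15, DBF4 from -0.13 to 0.04, GINS3 from -0.01 to 0.19 and PRIM1 from -0.22 to 0.01.

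With the replicate number as a replicate block, 21 members were called lower, at a median of -0.31, against 16% of all tested rows called lower. Deviations of same-numbered libraries from their group's mean correlated at 0.0424, -0.0708 and -0.0727. Those of differently numbered libraries correlated at -0.0372 to 0.106. Deviations from a group's own mean must cancel within the group, so these values cannot decide whether the numbers pair libraries. With 3 libraries a group, small changes may have gone undetected at this depth.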
